A study of Homo sapiens with 12 samples.

Results

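Integrins, collagens, laminins and fibronectin are the receptors and the fibres by which cells hold on to the matrix around them. The genes were taken from the table of raw counts by name, as the integrin alpha and beta chains, the numbered collagen chains, the laminin alpha, beta and gamma chains, and FN1, leaving out antisense genes and pseudogenes. This gave 83 of the 23705 genes in the table: 18 integrin alpha chains, 8 integrin beta chains, 44 collagen chains, 12 laminin chains and fibronectin. The measurements come from A375, a human line of metastatic melanoma cells grown in DMEM with fetal bovine serum. Cells received the DMSO vehicle alone, 5 μM of rosiglitazone (RGZ, an agonist of the nuclear receptor PPARγ), 2 μM of T0070907 (a PPARγ antagonist), or both compounds together for 24 h, with the compounds dissolved in DMSO. The work was repeated in 3 independent experiments, so each condition has 3 libraries, and each library is RNA pooled from the technical replicates of 1 condition in 1 experiment. The whole design therefore rests on 1 cell line.

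Integrins are receptors made of 1 alpha and 1 beta chain that span the cell membrane and tie the matrix to the actin skeleton. Chains α1, α2, α10 and α11 pair with β1 to bind collagens, α3, α6 and α7 bind laminins, and αV and α5 recognise the RGD motif of fibronectin and related proteins. Laminins are trimers of an alpha, a beta and a gamma chain that build basement membranes together with the collagen IV network, while fibrillar collagens and fibronectin make up the interstitial matrix. In melanoma, these receptors and ligands are best known for their part in attachment, migration and the passage of tumour cells through basement membranes.

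The libraries held between 8319455 and 11375227 counts, and levels are given as CPM, counts scaled to the size of the library by the TMM method. Of the 83 genes, 57 passed the filter on low counts and were tested among 13522 genes. The remaining 26 comprised 5 integrin alpha chains, 1 integrin beta chain, 2 laminins and 18 collagens, and none of them exceeded 22 counts in any library. COL1A2 and COL3A1, which encode the partner chain of collagen I and the collagen III chain of connective tissue, reached at most 4 and 6 counts. COL6A5 had no count in any library, and 15 genes had 3 counts or fewer in every library. As for the identity of the cells, SOX10, a transcription factor of the melanocyte lineage, was at 311 ± 109 CPM in vehicle (SD, n = 3) and AXL, a kinase of dedifferentiated melanoma, at 519 ± 62.9 CPM, whereas the pigment genes TYR, DCT, MLANA and PMEL stayed at or below 1.53 CPM in every library. The 4 markers of leukocytes reached at most 1.39 CPM (CD14) and the 4 of endothelium at most 2 CPM (CDH5) in any library. Of the keratinocyte markers, KRT10 was at 76.5 CPM in vehicle, KRT14 at 20.8, KRT5 at 1.38 and KRT1 at 0. Of the fibroblast markers, PDGFRB was at 14.5 CPM in vehicle, LUM at 4.83, PDGFRA at 1.49, DCN at 1.25 and THY1 at 0.347. Response to the agonist was checked on 5 known PPARγ targets, which all rose with RGZ in the fit with experiment as a block, PDK4 by 2.73 ± 0.18 log2 units (± SE) and PLIN2 by 2.62 ± 0.13. With both compounds, PLIN2 was at 362, 454 and 737 CPM in experiments 1, 2 and 3, beside 365, 389 and 405 CPM in vehicle. PDK4 was at 4.69, 9.26 and 20.5 CPM, beside 7.95, 8.92 and 11.6 CPM. In experiment 3 both stayed above vehicle, whereas the target CPT1A was at 65.9 CPM beside 69.5 CPM.

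In vehicle-treated cells, the genes with the highest level per kilobase of transcript were COL9A3, a collagen of cartilage that decorates other fibrils, at 117 ± 29.9 CPM per kb (SD, n = 3), and LAMB1, the laminin β1 chain, at 117 ± 11.1. Among the integrin alpha chains the laminin receptors led, with ITGA3 at 68.6 ± 13.7 CPM per kb and ITGA6 at 50.6 ± 9.29, followed by the fibronectin receptor ITGA5 at 32.2 ± 2.42. The ranges of ITGA3 and ITGA6 overlapped. Of the beta chains, ITGB1, the common partner of most alpha chains, was at 62.9 ± 4.06 CPM per kb, ITGB5 at 48.6 ± 4.14 and ITGB3, which forms the vitronectin receptor with αV, at 24.1 ± 11.7. Among the laminins LAMB1 was followed by LAMC1, the γ1 chain (61.6 ± 2.02), and LAMB2, the β2 chain (24.6 ± 2.76). COL4A2 of the basement membrane (67.8 ± 10.4) and the fibrillar chain COL5A2 (43.7 ± 5.31) followed COL9A3 among the collagens, and FN1 stood at 23.3 ± 15.7 CPM per kb. The collagen-binding chains were lower, from 4.81 ± 0.375 CPM per kb for ITGA2 to 0.119 ± 0.0498 for ITGA11. These values assume the longest annotated transcript of each gene.

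**Figure D1:**
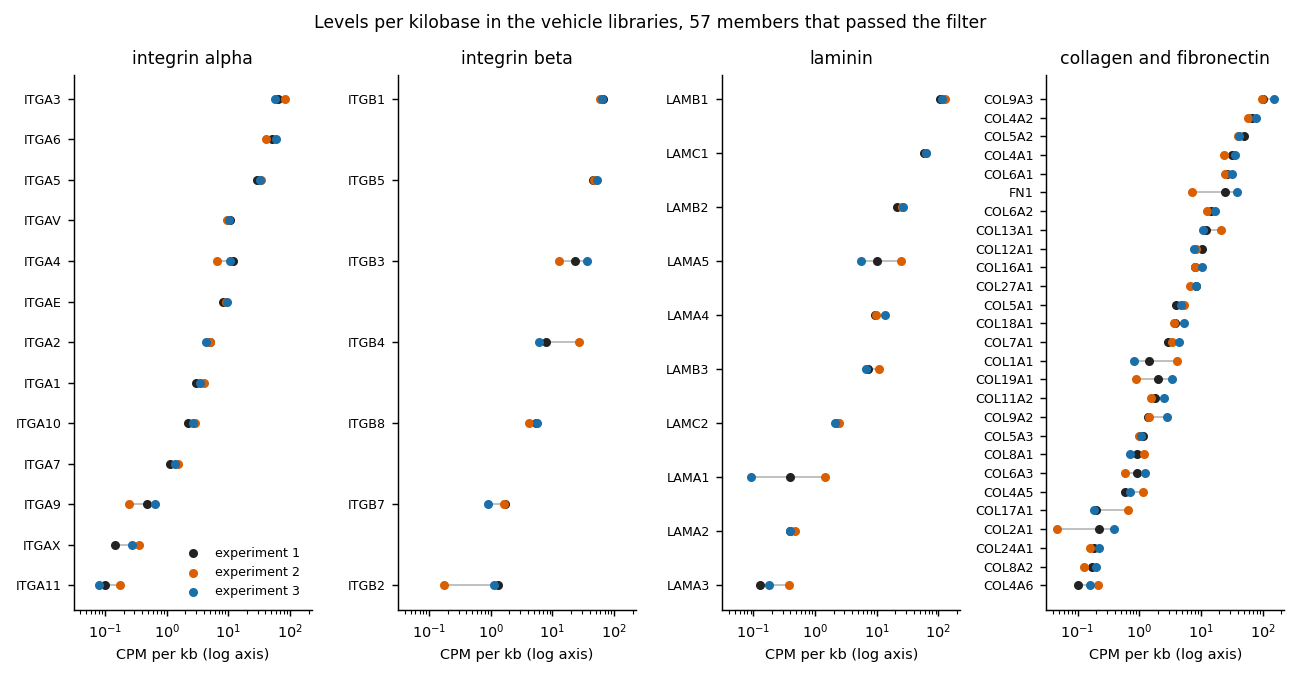
Level of each of the 57 tested genes in the 3 vehicle libraries, in CPM per kilobase of the longest annotated transcript on a log axis; points are the single libraries, coloured by experiment, and grey lines join the lowest and the highest. ITGA3, ITGB1, LAMB1 and COL9A3 lead their classes, and FN1, ITGB4, LAMA5 and LAMA1 show the experiments far apart.

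The first question was which of these genes responded to the agonist. In the fit of the 4 conditions without an experiment term, the quasi-likelihood F test of edgeR (Benjamini-Hochberg adjusted over all tested genes) called 4 of the 57 higher with RGZ than with vehicle (adjusted p under 0.05), against a background of 0.947% of all tested genes called higher, and none lower, against a background of 0.288%. At an unadjusted p under 0.05, 13 of the 57 and 1421 of all genes passed. Because the replicate numbers were read as those of the 3 experiments, the same test was run with experiment as a block. It called 22 of the 57, with 12 higher and 10 lower, where 9.3% of all tested genes were called, 4.95% higher and 4.35% lower. DESeq2 without the block called 9 of the 57 and 302 of all genes. The median log2 fold change of the 57 was -0.08, beside -0.01 for all genes tested. With the block, 18 of the 22 calls remained in every one of the 12 fits that left out a library, the exceptions being COL4A1, COL11A2, LAMA1 and LAMB2.

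The collagen receptor chain ITGA2 had the smallest p-value of the 57 genes. Its level was 39.1, 40 and 34.5 CPM in the 3 vehicle libraries, 97.2, 141 and 117 CPM with RGZ, 23.5, 24 and 17.4 CPM with T0070907, and 22.7, 43 and 35.7 CPM with both compounds. The RGZ libraries were all above the other 9. The fitted increase over vehicle was 1.64 ± 0.2 log2 units (adjusted p = 0.00237 without the block) or 1.63 ± 0.12 (adjusted p = 1.22e-07 with it), and the call held without any 1 library in either fit. ITGA1, which also forms a collagen receptor with β1, was at 32.5, 42.8 and 37.9 CPM in vehicle and 37.5, 67.2 and 60.6 CPM with RGZ. These groups overlapped, but ITGA1 was higher with RGZ in each of the 3 experiments, and it was called with the block only (0.52 ± 0.09, adjusted p = 0.00103, against 0.499 without it). The 2 other collagen-binding chains were not called in this comparison, ITGA10 with a log2 fold change of -0.37 and ITGA11 with -0.81 in the blocked fit.

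Both of the abundant laminin receptor chains rose in the blocked fit. ITGA3 was at 351, 460 and 317 CPM in vehicle and 618, 777 and 561 CPM with RGZ, a fitted change of 0.80 ± 0.07 (adjusted p = 2.61e-07 with the block, 0.0931 without it). ITGA6 went from 288, 231 and 335 CPM to 387, 411 and 485 CPM, or 0.60 ± 0.08 (adjusted p = 6.26e-05 with the block, 0.203 without it). Vehicle and RGZ libraries did not overlap for either gene. ITGA7, the laminin receptor chain of muscle, was not called (0.28 ± 0.17 with the block).

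Of the beta chains, ITGB5, which pairs with αV, rose from 197, 207 and 233 CPM to 290, 323 and 313 CPM. This was a change of 0.54 ± 0.09 without the block (adjusted p = 0.0163) and 0.54 ± 0.06 with it (adjusted p = 9.55e-06). The call without the block was lost on leaving out vehicle replicate 1 or 2 or RGZ replicate 2 or 3 (adjusted p = 0.0821, 0.0611, 0.0729 and 0.0627). ITGB7, which pairs with α4 or αE and is best known from lymphocytes, was much lower in level but showed the largest fitted increase, from 4.88, 4.76 and 2.59 CPM to 12, 20.1 and 10.4 CPM. Its change was 1.79 ± 0.34 (adjusted p = 0.0272) without the block and 1.77 ± 0.17 (adjusted p = 2.14e-06) with it. The unblocked call was lost in 5 of the 12 fits that left out 1 library, those without any 1 of the vehicle libraries or RGZ replicate 1 or 2, with adjusted p up to 0.125. ZNF740 on the opposite strand shares 42.1% of the exon bases of ITGB7, and the strand setting of the counting is not given in the sources used here. ZNF740 differed by 0.05 ± 0.07 log2 units between RGZ and vehicle (adjusted p = 0.85 without the block), and its part in the counts of ITGB7 was not tested. ITGB4, the partner of α6 in hemidesmosomes, went the other way, from 46.1, 157 and 35.4 CPM to 36.2, 117 and 23 CPM. It was lower with RGZ in each experiment and was called with the block (-0.45 ± 0.08, adjusted p = 0.000551) and not without it (adjusted p = 0.896), where its libraries spread over experiments.

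Of the integrin chains that bind fibronectin or vitronectin, ITGB3, ITGAV, ITGA5 and ITGB1 were not called between RGZ and vehicle, unlike ITGB5 above. ITGB3 was at 94.2, 50.2 and 144 CPM in vehicle and 84, 36.5 and 141 CPM with RGZ, a blocked change of -0.18 ± 0.13 (adjusted p = 0.444). The difference between experiments was wider than that between the conditions. ITGAV changed by 0.15 ± 0.11, ITGA5 by 0.09 ± 0.06 and ITGB1 by -0.07 ± 0.07. The unnamed transcript AC068234.1 lies on the strand of ITGB3 and covers 51.6% of its exon bases, and its part in the counts of ITGB3 was not tested. ITGA9, an α4-family chain that binds tenascin and osteopontin, fell from 3.86, 1.9 and 5.18 CPM to 1.56, 0.343 and 1.52 CPM, the lowest of these being 3 counts. Its blocked change was -1.66 ± 0.3 (adjusted p = 0.00123, against 0.301 without the block).

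**Figure D2:**
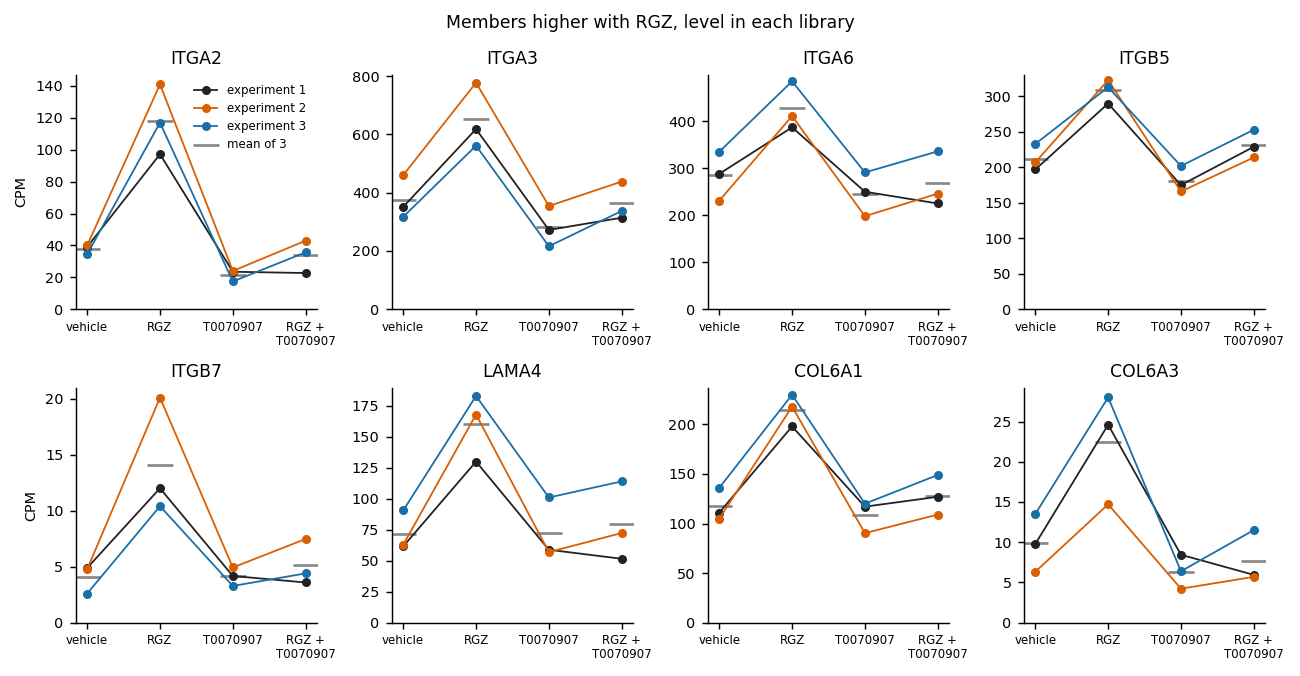
CPM of 8 genes called higher with RGZ in the blocked fit, for the 4 conditions; each line joins the libraries of 1 experiment, grey bars are the means of 3 libraries, and axes start at 0. In each of the 8 panels every line is highest at RGZ.

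Collagen VI, which forms beaded filaments next to basement membranes, rose in all 3 of its tested chains. COL6A1 was at 111, 105 and 136 CPM in vehicle and 198, 218 and 230 CPM with RGZ. Its change of 0.87 ± 0.14 was called without the block (adjusted p = 0.0109; 0.0731 without vehicle replicate 1 and 0.0506 without vehicle replicate 2) and with it (0.88 ± 0.08, adjusted p = 6.23e-07). COL6A2 went from 51.1, 43 and 59.7 CPM to 80.1, 72.3 and 103 CPM (0.73 ± 0.09, adjusted p = 2.11e-05 with the block, 0.149 without it). COL6A3, the longest of the 3 chains, went from 9.77, 6.31 and 13.5 CPM to 24.6, 14.7 and 28 CPM (1.19 ± 0.15, adjusted p = 3.09e-05 with the block, 0.182 without it). For each chain the lowest RGZ library was above the highest vehicle library, and the within-experiment log2 differences of COL6A3 were 1.32, 1.20 and 1.04. The other members of this family, COL6A5 and COL6A6, were at or near 0 counts.

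Among the laminins, LAMA4, the α4 chain found in vessel walls and in many mesenchymal cells, rose from 61.5, 62.8 and 90.5 CPM to 130, 168 and 183 CPM. The groups did not overlap, and the change was 1.18 ± 0.11 with the block (adjusted p = 1.29e-06) and 1.16 ± 0.29 without it (adjusted p = 0.0911). LAMA1, the α1 chain of embryonic basement membranes, was at 4.09, 15.3 and 0.941 CPM in vehicle and 5.51, 23.7 and 2.03 CPM with RGZ, higher in every experiment although the groups overlapped widely. Its blocked change of 0.62 ± 0.15 (adjusted p = 0.0139, against 0.899 without the block) was lost without vehicle replicate 2 (adjusted p = 0.179) or RGZ replicate 2 (adjusted p = 0.161). LAMB2 fell by 0.20 (SE 0.06, adjusted p = 0.0382 with the block, 0.605 without it), a call that was made in 3 of the 12 fits leaving out a library. LAMB1 (0.14 ± 0.05), LAMC1 (-0.08 ± 0.06) and LAMA5 (-0.04 ± 0.07) were not called.

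The upstream sequences of 5 of these genes are shown because they rose most (ITGA2, ITGB7), because 2 chains of collagen VI moved together (COL6A2, COL6A3), or because the gene fell while they rose (FN1). Each is the 150 bases before the annotated start of the gene in RefSeq (GRCh38.p14), read 5′ to 3′ on the strand of the gene, with capitals marking the TATA box and the GC box on either strand, which were searched as the letters TATAAA for the former and GGGCGG for the latter. The stretches lie at chr5:52989202-52989351 (plus strand) for ITGA2, chr12:53207252-53207401 (minus) for ITGB7, chr21:46097962-46098111 (plus) for COL6A2, chr2:237414165-237414314 (minus) for COL6A3 and chr2:215436069-215436218 (minus) for FN1.
ITGA2: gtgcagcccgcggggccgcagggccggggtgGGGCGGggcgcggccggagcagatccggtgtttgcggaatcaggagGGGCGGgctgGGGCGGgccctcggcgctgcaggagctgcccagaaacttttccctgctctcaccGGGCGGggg
ITGB7: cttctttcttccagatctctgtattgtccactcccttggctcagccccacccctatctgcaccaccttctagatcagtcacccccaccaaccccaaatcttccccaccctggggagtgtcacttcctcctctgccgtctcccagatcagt
COL6A2: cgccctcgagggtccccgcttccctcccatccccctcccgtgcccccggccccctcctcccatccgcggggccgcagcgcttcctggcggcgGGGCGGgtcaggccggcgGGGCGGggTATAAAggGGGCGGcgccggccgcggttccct
COL6A3: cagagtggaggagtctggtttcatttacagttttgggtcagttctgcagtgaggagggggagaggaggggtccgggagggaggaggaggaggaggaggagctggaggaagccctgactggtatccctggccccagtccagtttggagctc
FN1: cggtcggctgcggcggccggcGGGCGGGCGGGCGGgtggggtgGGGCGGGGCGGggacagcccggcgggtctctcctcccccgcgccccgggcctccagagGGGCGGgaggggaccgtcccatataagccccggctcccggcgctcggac

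The raised genes did not share these letters. The ITGA2 stretch holds 4 GC boxes and that of COL6A2 holds 3 with 1 TATA box, whereas those of COL6A3 and ITGB7 hold neither, and that of FN1, which fell, holds 6 GC boxes, some overlapping. Sequence windows were at hand for 59 of the 83 genes, and over the 250 bases before their starts the GC box was present in 36 of the 59 (61%), compared with 46.2% of all 27305 genes with a window. Of the 12 raised genes 9 had a window, and of the 10 lowered genes 5, and in each set 5 windows held a GC box. The direct repeat of AGGTCA that PPARγ and its partner RXR bind, written AGGTCANAGGTCA and searched on both strands, was in no window of these genes and in 0.022% of all genes. A single AGGTCA, which the repeat contains by construction, was in 3 of the 59 (5.08%) and in 14.6% of all genes. The absence of a match concerns these letters in this window only.

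Fibronectin and 4 of the 8 tested fibrillar collagen chains were called lower with RGZ in the blocked fit, and none of them without the block. FN1 was at 223, 65.4 and 352 CPM in vehicle and 117, 36.8 and 191 CPM with RGZ. Although the experiments lay far apart and the groups overlapped, the log2 difference within each was -0.93, -0.83 and -0.88. The blocked fit gave -0.88 ± 0.09 (adjusted p = 4.49e-06) and the unblocked fit -0.89 ± 0.7 (adjusted p = 0.71). COL1A1, the main chain of collagen I, was also lower with RGZ in each experiment, with 9.88, 27.4 and 5.53 CPM in vehicle and 6.45, 16.1 and 2.74 CPM with RGZ (-0.76 ± 0.13, adjusted p = 0.000672 with the block, 0.801 without it). Its groups overlapped, and the partner chain COL1A2 had too few counts to test.

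Collagen V, which nucleates the fibrils of collagen I, fell in 2 of its 3 chains. COL5A1 went from 34, 44.9 and 40 CPM to 20.9, 29.5 and 24.1 CPM (-0.68 ± 0.11, adjusted p = 0.00029 with the block, 0.14 without it). COL5A2 went from 353, 285 and 291 CPM to 275, 211 and 228 CPM (-0.38 ± 0.06, adjusted p = 0.000472 with the block, 0.232 without it). Neither gene's RGZ libraries reached the lowest vehicle library. COL5A3 was higher with RGZ in each of the 3 experiments and was not called (0.45 ± 0.16, adjusted p = 0.0981 with the block). COL11A2, a fibrillar chain of cartilage, fell by 0.53 log2 units (SE 0.16, adjusted p = 0.0451 with the block, 0.568 without it), and its call was made in 6 of the 12 fits without a library. None of the 8 fibrillar chains was called higher, and their median log2 fold change was -0.48, beside backgrounds of 4.35% of all tested genes called lower and 4.95% higher.

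The FACIT collagens, which bridge fibrils rather than forming them, fell in 2 of 5 tested genes. COL16A1 was at 45.6, 46.3 and 60.8 CPM in vehicle and 28.6, 30.8 and 42.8 CPM with RGZ, without overlap (-0.59 ± 0.07, adjusted p = 2.69e-05 with the block, 0.303 without it). COL9A3 was at 259, 241 and 378 CPM in vehicle and 216, 163 and 301 CPM with RGZ (-0.38 ± 0.08, adjusted p = 0.00257 with the block, 0.685 without it). It was lower with RGZ in each experiment, and its groups overlapped. COL9A2, COL12A1 and COL19A1 were not called, with blocked changes of -0.43, -0.24 and -0.23.

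**Figure D3:**
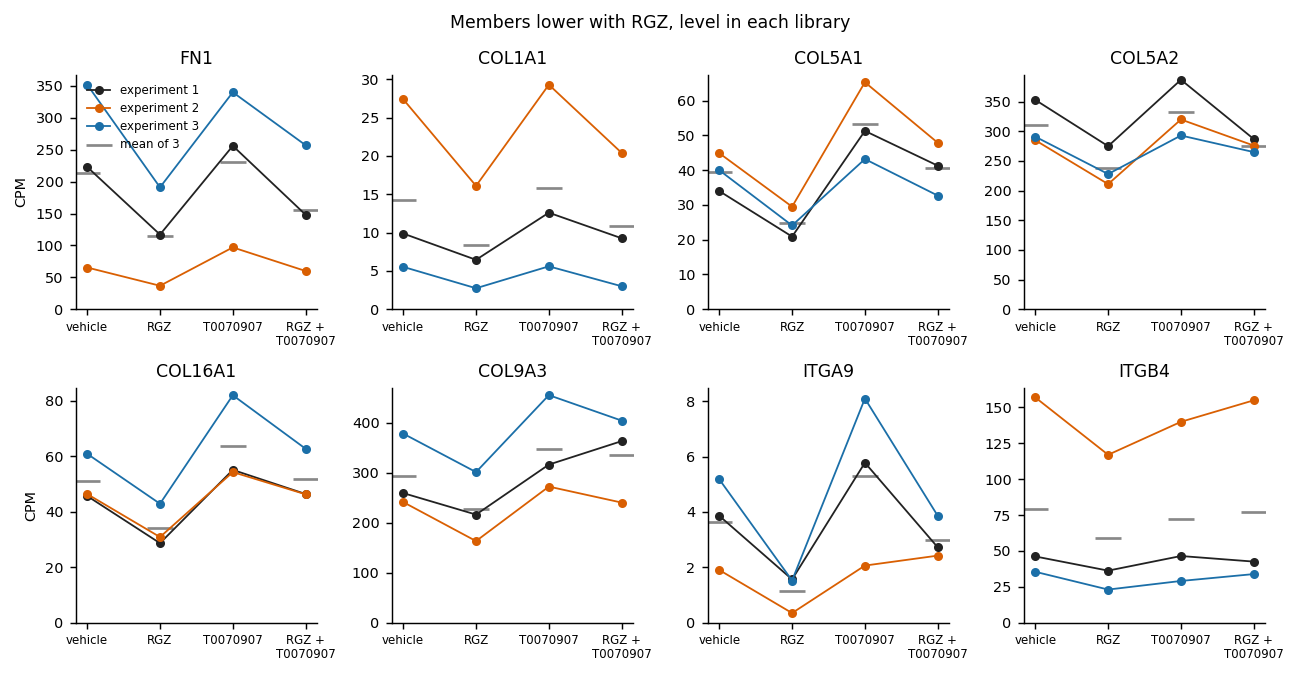
CPM of 8 genes called lower with RGZ in the blocked fit, for the 4 conditions; each line joins the libraries of 1 experiment, grey bars are the means of 3 libraries, and axes start at 0. In each panel every line falls from vehicle to RGZ, and for FN1, COL1A1 and ITGB4 the distance between lines is larger than this fall.

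Collagen IV, the network of basement membranes, is encoded by pairs of genes that lie head to head. COL4A1 was at 210, 157 and 234 CPM in vehicle and 229, 219 and 268 CPM with RGZ, and its partner COL4A2 at 437, 374 and 509 CPM and 481, 450 and 548 CPM. Both genes were higher with RGZ in each of the 3 experiments, by small amounts. COL4A1 was called with the block (0.26 ± 0.08, adjusted p = 0.0388), a call made in 5 of the 12 fits that left out a library, and COL4A2 was not (0.17 ± 0.05, adjusted p = 0.0637). COL4A5 and COL4A6, the pair on chromosome X, were at 5.28 ± 1.86 and 1.06 ± 0.373 CPM in vehicle (SD, n = 3) and were not called. The starts of COL4A1 and COL4A2 lie 127 bases apart and those of COL4A6 and COL4A5 380 bases apart in RefSeq (GRCh38.p14). The 126 bases between the first pair (chr13:110307158-110307283, plus strand, read towards COL4A2) are shown because both genes start from them, with capitals for CCAAT and GGGCGG on either strand.
COL4A1-COL4A2: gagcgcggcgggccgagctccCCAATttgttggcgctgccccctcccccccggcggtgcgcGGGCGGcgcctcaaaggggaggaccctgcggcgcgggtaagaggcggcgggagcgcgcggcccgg

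The second question was what the antagonist did alone. Without the block none of the 57 genes was called between T0070907 and vehicle (background 0.0074%), and 4 of them and 419 of all genes passed an unadjusted p under 0.05, while DESeq2 called none of the 57 and 21 of all. With the block, 2 were higher (background 0.237%) and 3 lower (background 0.673%). ITGA2 fell by 0.83 (SE 0.14, adjusted p = 0.00675) and ITGA3 by 0.43 (SE 0.07, adjusted p = 0.00248), the latter from 351, 460 and 317 CPM to 272, 354 and 216 CPM. COL13A1, a collagen anchored in the cell membrane, fell by 0.47 (SE 0.10, adjusted p = 0.0313), from 38.2, 66.5 and 34.4 CPM to 28.8, 49.5 and 22.7 CPM. COL5A1 rose by 0.42 ± 0.10 (adjusted p = 0.0481) and COL16A1 by 0.31 ± 0.07 (adjusted p = 0.0317). The ITGA3 call was made in all 12 fits without a library, and those of ITGA2, COL13A1, COL5A1 and COL16A1 in 9, 7, 4 and 3. ITGA2, ITGA3, COL5A1 and COL16A1 were also called between RGZ and vehicle, there in the opposite direction, while COL13A1 was not (0.14 ± 0.10). The 2 comparisons share their vehicle libraries. The count was between 1 and 4 without any 1 vehicle, RGZ or T0070907 library (30 to 119 of all genes), 4 without replicate 3 of the combination, 6 without its replicate 2 (207 of all genes) and 11 without its replicate 1 (329 of all genes).

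The third question was whether the antagonist removed the response to RGZ. Between the combination and vehicle none of the 57 genes was called, without the block (background 0%) or with it (background 0%), and the unadjusted p was under 0.05 for 4 and 15 of them, and for 1438 and 2868 of all genes. DESeq2 called none of the 57 either. In the blocked fit this count became 11 when replicate 2 of the combination was left out, where 2594 of all genes were called, and 6 without vehicle replicate 2, where 873 were. The blocked change furthest from 0 was that of ITGA11, a collagen receptor chain of fibroblasts, at -1.22 ± 0.39 (adjusted p = 0.111), so a p above the threshold does not show that these genes were back at the level of vehicle. FN1 was at -0.41 ± 0.09 (adjusted p = 0.0983), with 148, 59.9 and 257 CPM, between the levels of RGZ and vehicle in each experiment.

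Against RGZ alone, the combination was lower in 2 genes without the block (background 0.924%) and higher in none (background 0.311%). With the block, 16 genes were lower (background 5.88%) and 13 higher (background 5.55%). ITGA2 was lower by 1.80 log2 units in both fits (adjusted p = 0.00186 without the block and 4.61e-08 with it). COL6A1 was lower by 0.75 without the block (SE 0.14, adjusted p = 0.0229), a call lost without RGZ replicate 2 or 3 or replicate 1 or 2 of the combination (adjusted p = 0.0809, 0.0962, 0.118 and 0.0781), and by 0.76 with it (adjusted p = 3.98e-06). COL6A3 had blocked changes of -1.53 ± 0.16, ITGB7 of -1.44 ± 0.16, LAMA4 of -1.06 ± 0.11, ITGA3 of -0.84 ± 0.07 and ITGA6 of -0.68 ± 0.08. Genes that were not called between RGZ and vehicle were lower here too, ITGAV by 0.37 (SE 0.11, adjusted p = 0.0327), ITGA5 by 0.21 (SE 0.06, adjusted p = 0.0351), COL4A2 by 0.21 (SE 0.05, adjusted p = 0.0164) and LAMB1 by 0.17 (SE 0.05, adjusted p = 0.0482). In the 12 fits without a library, COL4A2 was called in 10, ITGAV in 8, ITGA5 in 7 and LAMB1 in 3. Without replicate 1 of the combination, the blocked change of ITGAV was -0.17 (adjusted p = 0.123).

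Among the genes higher in the combination than with RGZ, ITGA9 had 1.41 ± 0.31 (adjusted p = 0.0064), COL17A1, a transmembrane collagen of hemidesmosomes, 1.11 ± 0.32 (adjusted p = 0.0283), COL9A2 0.79 ± 0.16 (adjusted p = 0.00321), COL5A1 0.71 ± 0.11, COL16A1 0.60 ± 0.07, COL9A3 0.58 ± 0.08 and FN1 0.47 ± 0.09. ITGAE, which pairs with β7, was higher at 45.1, 37.7 and 43.6 CPM against 32.4, 30.7 and 31.7 CPM with RGZ (0.41 ± 0.09, adjusted p = 0.00783), and ITGA10 by 0.42 ± 0.13 (adjusted p = 0.0484). COL5A2 (0.22), COL11A2 (0.53), ITGB4 (0.39) and LAMB2 (0.19) completed the 13. Of the 29 calls, 17 were made in every one of the 12 fits without a library. ITGA9 and ITGAE were called in 11 of these fits, COL17A1 in 8, COL5A2 and COL11A2 in 7, and ITGA10 and LAMB2 in 3. COL1A1, called lower with RGZ, was not called here (0.37 ± 0.13, adjusted p = 0.0912).

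**Figure D4:**
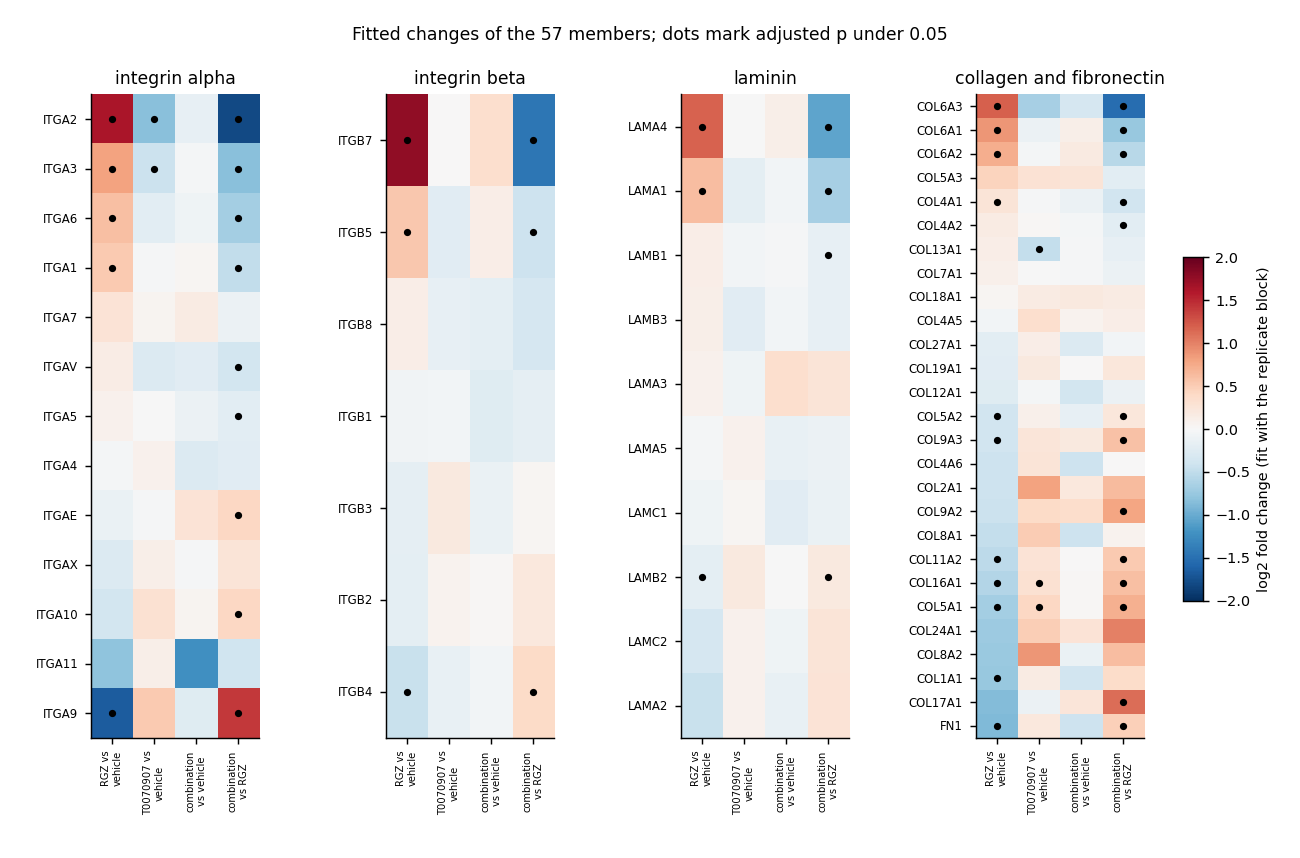
Log2 fold changes of the 57 tested genes in the fit with experiment as a block, for RGZ, T0070907 and the combination against vehicle and for the combination against RGZ; red is higher, blue is lower, and dots mark an adjusted p under 0.05. The column of the combination against vehicle holds no dot, and the first and last columns share the RGZ libraries.

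The comparison of the combination with T0070907 alone, which has the antagonist in both arms, gave no call without the block (background 0.037%), with 11 of the 57 and 2028 of all genes at an unadjusted p under 0.05, and DESeq2 called 1 of the 57 and 87 of all. With the block it gave 4 higher (background 4.55%) and 13 lower (background 4.22%). The 4 higher were ITGA2 (0.66 ± 0.15, adjusted p = 0.0142), COL13A1 (0.45 ± 0.10, adjusted p = 0.0152), ITGA3 (0.39 ± 0.07, adjusted p = 0.00275) and ITGB5 (0.36 ± 0.06, adjusted p = 0.00282). Of the lower genes, ITGA11 had -1.33 ± 0.36 (adjusted p = 0.0345), at most 1.97 CPM in any library, COL8A1, a short-chain network collagen, -0.92 ± 0.17 (adjusted p = 0.00574), ITGA9 -0.78 ± 0.23, FN1 -0.63 ± 0.09 (adjusted p = 0.000572) and COL1A1 -0.55 ± 0.12. The other 8 (COL5A1, COL27A1, COL12A1, COL16A1, COL5A2, LAMC1, LAMA5, LAMB2) lay between -0.40 and -0.21. Only FN1 and ITGB5 were called in all 12 fits without a library, and without replicate 3 of the combination these 2 were the whole count (106 of all genes). The count was 5 and 4 without T0070907 replicates 1 and 2 (215 and 168 of all genes), and 23 without replicate 2 of the combination (3342 of all genes).

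The interaction term asked directly whether the effect of RGZ differed with and without T0070907. No gene of the 57, and none of all genes, was called without the block (background 0%), with 5 of the 57 and 406 of all genes at an unadjusted p under 0.05, and DESeq2 called none of the 57 and 1 of all. With the block 4 were lower (background 0.17%) and 1 higher (background 0.111%). These were LAMA4 (-1.05 ± 0.16, adjusted p = 0.0242), COL6A1 (-0.65 ± 0.11, adjusted p = 0.0336), ITGB7 (-1.44 ± 0.27, adjusted p = 0.0374) and ITGA2 (-0.97 ± 0.19, adjusted p = 0.0452), in which the increase with RGZ was smaller in the presence of the antagonist, and ITGB4 (0.54 ± 0.11, adjusted p = 0.0447), in which the decrease was. None of the 5 was called in every fit without a library, and all 5 calls were lost without vehicle replicate 2, vehicle replicate 3 or T0070907 replicate 1. The count was 8 without replicate 1 or 2 of the combination (105 and 149 of all genes), 5 without its replicate 3, and between 1 and 3 in the remaining fits. For ITGA3 and ITGA6 the interaction was -0.41 ± 0.09 (adjusted p = 0.0811) and -0.47 ± 0.11 (adjusted p = 0.113).

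The experiments differed in most of these genes. In the blocked fit, the experiment terms were called for 47 of the 57 genes, where 30.5% of all tested genes were called. The median distance between the highest and the lowest experiment was 0.56 log2 units for the 57 genes and 0.19 for all genes, and it exceeded 1 in 28.1% and 5.46%. Of the 47 genes, 13 were highest in experiment 2 and lowest in experiment 3, and 16 were highest in experiment 3 and lowest in experiment 2. These were 27.7% and 34% of the called genes here, beside 32.4% and 25.8% of the 4122 called among all tested genes.

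The first order was led by laminin and integrin chains and collagen I. LAMA5, the α5 chain of epithelial laminins, averaged 116, 288 and 59.2 CPM in experiments 1, 2 and 3 (4 libraries each), a 4.85-fold range (adjusted p = 1.58e-14). ITGB4 averaged 42.8, 142 and 30.3 CPM (4.70-fold, adjusted p = 2.31e-14) and LAMA1 4.14, 16.9 and 1.22 CPM (13.9-fold). COL17A1 (4.18-fold), COL1A1 (5.52-fold), COL13A1 (1.77-fold), LAMB3 (1.67-fold) and ITGA3 (1.42-fold) had the same order. The second order was led by COL19A1, a FACIT collagen (11.3, 4.75 and 24.4 CPM, 5.13-fold), FN1 (186, 64.8 and 285 CPM, 4.40-fold, adjusted p = 4.72e-12), COL2A1 of cartilage (3.87-fold), ITGA9 (2.77-fold) and ITGB3 (85, 53.6 and 144 CPM, 2.68-fold). It also held the chains of collagen VI and both COL4A1 (1.31-fold) and COL4A2 (1.27-fold), while COL4A5 (2.22-fold) and COL4A6 (2.57-fold) were both highest in experiment 2 and lowest in experiment 1.

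The experiment terms had the largest p for ITGB1, at 228, 220 and 223 CPM (1.04-fold, adjusted p = 0.866), for the sparsely counted COL8A2 (1.27-fold, adjusted p = 0.709) and for ITGAV (1.08-fold, adjusted p = 0.568). The transcription factors SOX9 and SOX10 of the neural crest moved with the experiments as well. In vehicle, SOX9 was at 8.97, 26.4 and 2.94 CPM and SOX10 at 300, 208 and 425 CPM in experiments 1, 2 and 3. Their part in the difference between experiments was not tested.

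**Figure D5:**
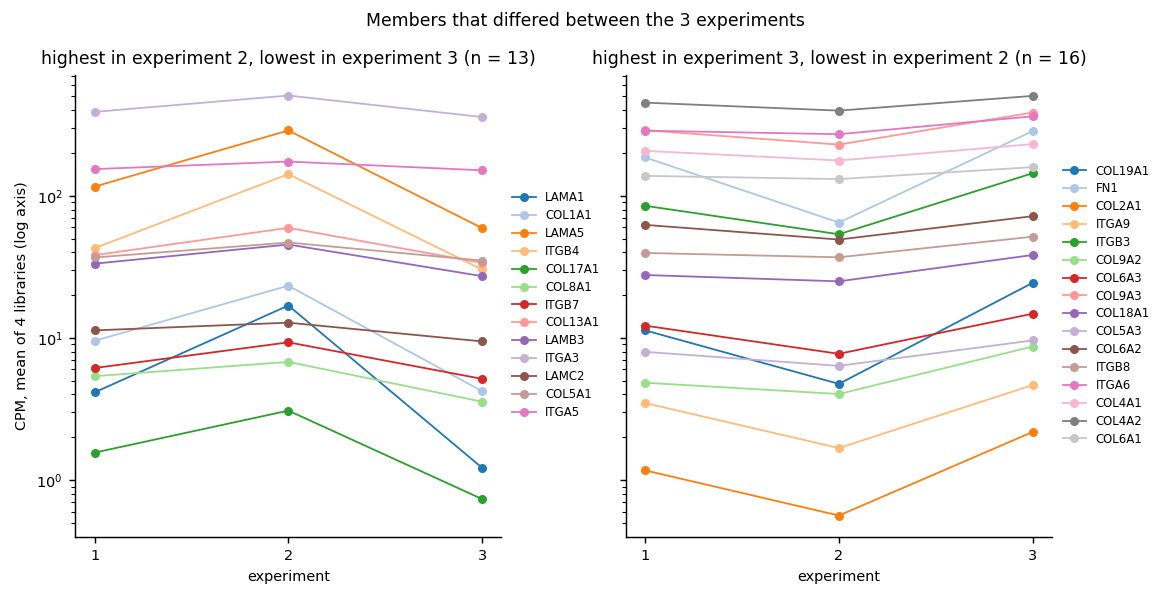
Mean CPM over the 4 conditions of each experiment, on a log axis, for the genes called between experiments with experiment 2 highest and 3 lowest (left, 13 genes) or experiment 3 highest and 2 lowest (right, 16 genes). LAMA1, COL1A1, LAMA5 and ITGB4 show the steepest lines on the left, and COL19A1, FN1 and COL2A1 on the right.

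Genes that act with these receptors and fibres were read from lists of the pathway, to be set against the 9.3% of all tested genes that the blocked fit called between RGZ and vehicle (4.95% higher and 4.35% lower). Of 26 tested integrin activators and adaptors, 2 rose and 3 fell with RGZ in the blocked fit, and the largest change was that of FERMT1, an activator that binds integrin beta tails, from 58, 65 and 47.8 CPM to 101, 117 and 113 CPM (0.97 ± 0.09, adjusted p = 1.69e-06). TNS3, a focal adhesion adaptor, fell by 0.50 (SE 0.07, adjusted p = 9.38e-05). Of 25 tested enzymes of collagen processing 3 were called, a share near that of all genes: LOXL1 rose and 2 fell, LOXL4, a lysyl oxidase that cross-links collagen, by 1.06 (SE 0.06, adjusted p = 2.33e-09), from 165, 207 and 247 CPM to 76.9, 103 and 117 CPM. Of 20 other matrix glycoproteins, 8 fell and none rose, among them THBS1 (-0.45 ± 0.10), CCN2 (-0.38 ± 0.08) and SPP1, which encodes osteopontin (-0.53 ± 0.13). Of 14 other matrix receptors, SDC4 (0.55 ± 0.05) and PLAUR (0.64 ± 0.09) rose and 5 fell, including the syndecan SDC2 (-0.68 ± 0.10) and CD44, the hyaluronan receptor (-0.30 ± 0.06). Without the block, where 1.24% of all tested genes were called, the calls were 2 of the 26 activators and adaptors, 3 of the 14 receptors, and none of the enzymes or glycoproteins. Of the cell type markers, none of which was called without the block, the melanocyte lineage genes S100B (-1.02 ± 0.13) and MITF (-0.34 ± 0.08) and the neural crest receptor NGFR (-1.18 ± 0.17), AXL (-0.22 ± 0.07), KRT14 (-0.94 ± 0.14) and PDGFRB (-0.57 ± 0.13) fell with RGZ in the blocked fit, which makes 2 of 5 tested melanocyte markers, 2 of 4 of the dedifferentiated list, 1 of 3 keratinocyte and 1 of 4 fibroblast markers. Their part in the changes of the matrix genes was not tested, and in bulk RNA fewer cells of a kind and less RNA per cell cannot be told apart.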

How the data were processed

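The authors deposited a table of raw read counts per gene (NCBI gene numbers) for 12 libraries sequenced on an Illumina instrument from TruSeq libraries of Trizol-extracted RNA. Genome build hg19 is named in the submitters' processing notes, and the aligner, counter and strand setting are not given in the sources used here. Totals of 8319455 to 11375227 counts per library limit the precision for genes with few counts. No 2 libraries of a condition agreed within counting noise (chi-square per degree of freedom 5.28 to 14.8).

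Gene numbers were matched to current RefSeq symbols (23538 of 23705), and members were taken by name. Counts were tested with edgeR 4.0.16 in R 4.3.3: filterByExpr by condition, TMM scaling, quasi-likelihood F tests over 4 conditions, and Benjamini-Hochberg adjustment over 13522 genes, with calls at adjusted p under 0.05. SE was taken as the log2 fold change divided by the square root of F. For the model of this experiment the study refers elsewhere, so the first fit had no experiment term. The labels give each library a replicate number, which was read as the number of its independent experiment. Same-numbered libraries deviated together (18 pairs, mean correlation 0.554, lowest 0.0793), so the fit with the replicate block is given beside it. Alternatives were limma 3.58.1 (voom), DESeq2 1.42.0, other scaling, filters, thinning, and leaving out each library. The fits were also run on data simulated from the blocked fit, with 200 genes changed between RGZ and vehicle. Because that simulation takes the blocked model as given, it cannot decide between the 2 fits, and it did not cover the other comparisons. Per-kilobase levels used the longest GENCODE transcript. Members and lists were chosen with earlier results of these data known. Named genes are members called in any comparison, FN1, 4 members the study discusses, the 3 highest per class in vehicle, the 3 largest and 3 smallest p of the experiment terms, the 2 largest changes per comparison, and called genes of the other lists. Further members named for their class (such as ITGA7, COL5A3, COL12A1, COL2A1) were chosen after their values were seen.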

Additional observations from a re-analysis of the deposited data

Results flagged for a closer look

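For 5 genes the effect of RGZ differed with and without T0070907, by the interaction term of the fit with experiment as a block (edgeR's quasi-likelihood test, Benjamini-Hochberg adjusted), while the fit without the block called none of them. The log2 effect of RGZ with the antagonist minus that without it was -1.44 for ITGB7, -1.05 for LAMA4, -0.97 for ITGA2, -0.65 for COL6A1 and 0.54 for ITGB4. For ITGB7 the effect was 1.77 without and 0.33 with the antagonist, for LAMA4 1.18 and 0.12, for ITGA2 1.63 and 0.66, for COL6A1 0.88 and 0.23, and for ITGB4 -0.45 and 0.09. In the 12 fits that left out 1 library, LAMA4 was called in 9, COL6A1 in 6, ITGA2 in 5, ITGB7 in 4 and ITGB4 in 2. All 5 calls were lost without vehicle replicate 2, vehicle replicate 3 or T0070907 replicate 1.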

How the results depend on the processing

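Of the 57 genes, the number called changed with the replicate block in 5 of the 6 treatment comparisons. With the replicate block it went from 4 to 22 for RGZ against vehicle, 0 to 5 for T0070907, 2 to 29 for the combination against RGZ, 0 to 17 for the combination against T0070907 and 0 to 5 for the interaction, and it stayed at 0 for the combination against vehicle. In the same order of the 5, limma-voom with the block gave 21, 4, 27, 17 and 3, where 1220, 109, 1466, 1009 and 21 of all genes were called. DESeq2 gave 9 for RGZ, 8 for the combination against RGZ and 1 for the combination against T0070907 (302, 313 and 87 of all genes). For the combination against RGZ, no filter on low counts gave 6 (170 of all genes) and the compared libraries alone 1 (41 of all genes). An adjusted p under 0.01 gave 1 there (41 of all genes) and 1 for RGZ (48 of all genes).

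Without 1 library, the fit without the block gave 1 to 5 calls for RGZ, 1 to 4 for the combination against RGZ and 0 in the other 4 treatment comparisons. The counts over all genes in these unblocked fits are not given here, so these ranges have no background beside them. The blocked fit gave 18 to 27 for RGZ, 1 to 11 for T0070907, 0 to 11 for the combination against vehicle, 19 to 28 against RGZ, 2 to 23 against T0070907 and 0 to 8 for the interaction. At these highest counts 2044 of all genes were called for RGZ, 329 for T0070907, 2594 for the combination against vehicle, 1429 or 1611 against RGZ, 3342 against T0070907 and 105 or 149 for the interaction. The experiment terms ranged from 44 to 49.

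Some directions turned without 1 library (replicate 2 of the vehicle, RGZ, T0070907 or combination libraries, and replicate 3 of the combination for FN1 and LAMA5) in the fit without the block, with log2 fold changes from -1.63 to 0.11 (COL1A1), -1.42 to 0.52 (ITGB4) and -0.85 to 2.02 (LAMA1) for RGZ, from -0.15 to 1.01 (FN1), -0.62 to 1.38 (ITGB4) and -1.99 to 0.81 (LAMA1) for the combination against RGZ, from -1.39 to 0.28 (COL1A1) and -1.12 to 0.63 (LAMA5) for the combination against T0070907, and from -0.48 to 1.53 (ITGB4) for the interaction. The cause was not tested. With the block no direction turned. Other scaling changed no call, and genes with few counts (ITGA9, ITGA11, COL17A1) are limited by depth.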
